A study of Mus musculus with 9 samples.

Results

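Klrg1, Itgae, Il1rl1, Il1r2, Areg, Gata3, Il10, Ebi3, Prdm1 and Capg are genes associated with effector and tissue-resident regulatory T cells, and they are described here as a set of 10 chosen by name. All 10 were found in the count table, which held 45808 genes. The RNA came from ICOS+ CD4 T cells sorted from tumours of C57BL/6J mice 12 days after injection of MC38, a mouse colon adenocarcinoma line. Mice had been given anti-CTLA-4 (n = 3) or anti-PD-1 (n = 3), antibodies against inhibitory receptors of T cells, or were controls (n = 3). Each library came from a single mouse. The sources used here give neither the control treatment nor the antibody clones and doses, the age of the mice or the number of sorted cells. By its title the study asked about cellular mechanisms that differ between the antibodies, so each was set against the controls and against the other.

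Regulatory T cells restrain immune responses and depend on the transcription factor Foxp3. After activation some become effector regulatory T cells, which use the transcriptional repressor Blimp-1 (encoded by Prdm1) and can secrete interleukin 10. Those that settle in tissues and tumours often carry KLRG1, the integrin CD103 and ST2, the receptor for the alarmin interleukin 33, and can release amphiregulin, a growth factor that acts in tissue repair. Gata3 is used by Th2 cells and also by such tissue regulatory T cells.

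Gene counts summed to 25530333 to 41508589 per library, and 3 counts corresponded to 0.0723 to 0.118 CPM (counts per 1000000 gene counts). The gate's markers, Cd4, Icos, Cd3d, Cd3e, Cd3g, Trac, Cd2, Cd5, Ptprc and Foxp3, summed to 9449 to 12996 CPM in 8 libraries but only to 3933 CPM in replicate 2 of anti-CTLA-4. The list was split in that library. Cd4, Icos, Cd3e, Cd2, Cd5, Ptprc and Foxp3 had their lowest values there, with Cd4 at 24.5 CPM and Cd3e at 0.59 CPM. Cd3d, Cd3g and Trac had their highest values there, at 696, 649 and 632 CPM. In the same library 13 macrophage and monocyte markers summed to 5827 CPM and 8 fibroblast markers to 5856 CPM. The highest sums of these 2 marker lists elsewhere were 1133 and 1181 CPM. Libraries differed strongly in detection: 2662 genes reached 5 CPM in anti-CTLA-4 replicate 2, 4209 did in anti-PD-1 replicate 2, and 5124 to 6309 did elsewhere. The main values that rest on anti-CTLA-4 replicate 2 are also given without it. Because the cells were measured in bulk, fewer cells of a type and less RNA per cell cannot be told apart.

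No member passed the test in any comparison, and what the data show is a set of levels with very different stability from mouse to mouse. Klrg1 lay below every control and every anti-PD-1 library in all 3 anti-CTLA-4 libraries, and Areg and Prdm1 lay below every control there. Itgae lay above every control under anti-CTLA-4. Under anti-PD-1, Il1rl1 lay below every control, while Capg and Il10 lay above every control. For Il10 the margin was only 13.85 against 13.81 CPM at the closest. Gata3, Il1r2 and Ebi3 overlapped between the groups in every comparison. Of all tested genes, 9.76% to 11.9% had no overlap in a comparison.

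The test was edgeR's quasi-likelihood test over all 9 libraries, with p-values adjusted by Benjamini-Hochberg over the 7858 tested genes and a threshold of 0.05. All 10 members were tested. For anti-CTLA-4 against controls it called 0 of 10 members, where 0.369% of all tested genes were called. An unadjusted p under 0.05 was reached by 1 member and by 889 of the 7858 tested genes. For anti-PD-1 against controls the test called 0 of 10 (background 0.0764%), with 0 members and 472 tested genes at an unadjusted p under 0.05. For anti-CTLA-4 against anti-PD-1 it called 0 of 10 (background 0.827%), with 2 members and 1106 tested genes at an unadjusted p under 0.05. The test over the 3 groups called 0 of 10 (background 1.53%), with adjusted p of 0.258 for Klrg1, 0.379 for Itgae, 0.821 for Areg and 1.0 for the others. DESeq2 also called 0 members in each of these tests, but gave Itgae no adjusted p. The fitted biological coefficient of variation between mice of a group was 1.84, so large differences could stay above the threshold. A p above the threshold does not show that the groups were alike.

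Groups that do not overlap were counted beside the test. For anti-CTLA-4 against controls 4 of 10 members had no overlap, where 11.9% of tested genes had none. The 3 lower members compare with 10.4% of genes that were lower without overlap, and the 1 higher member with 1.57%. For anti-PD-1 against controls the count was 3 of 10, against 10.8% of tested genes, with 2 members higher (background 3.45%) and 1 lower (background 7.33%). For anti-CTLA-4 against anti-PD-1 it was 1 of 10, against 9.76%, with 0 members higher (background 2.81%) and 1 lower (background 6.95%). The 2 comparisons with controls share the control libraries. The median fitted log2 change of the members was -0.05 for anti-CTLA-4 against controls, 0.48 for anti-PD-1 against controls and -0.78 for anti-CTLA-4 against anti-PD-1. Over all tested genes the medians were 0.01, 0.07 and -0.05.

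**Figure D1:**
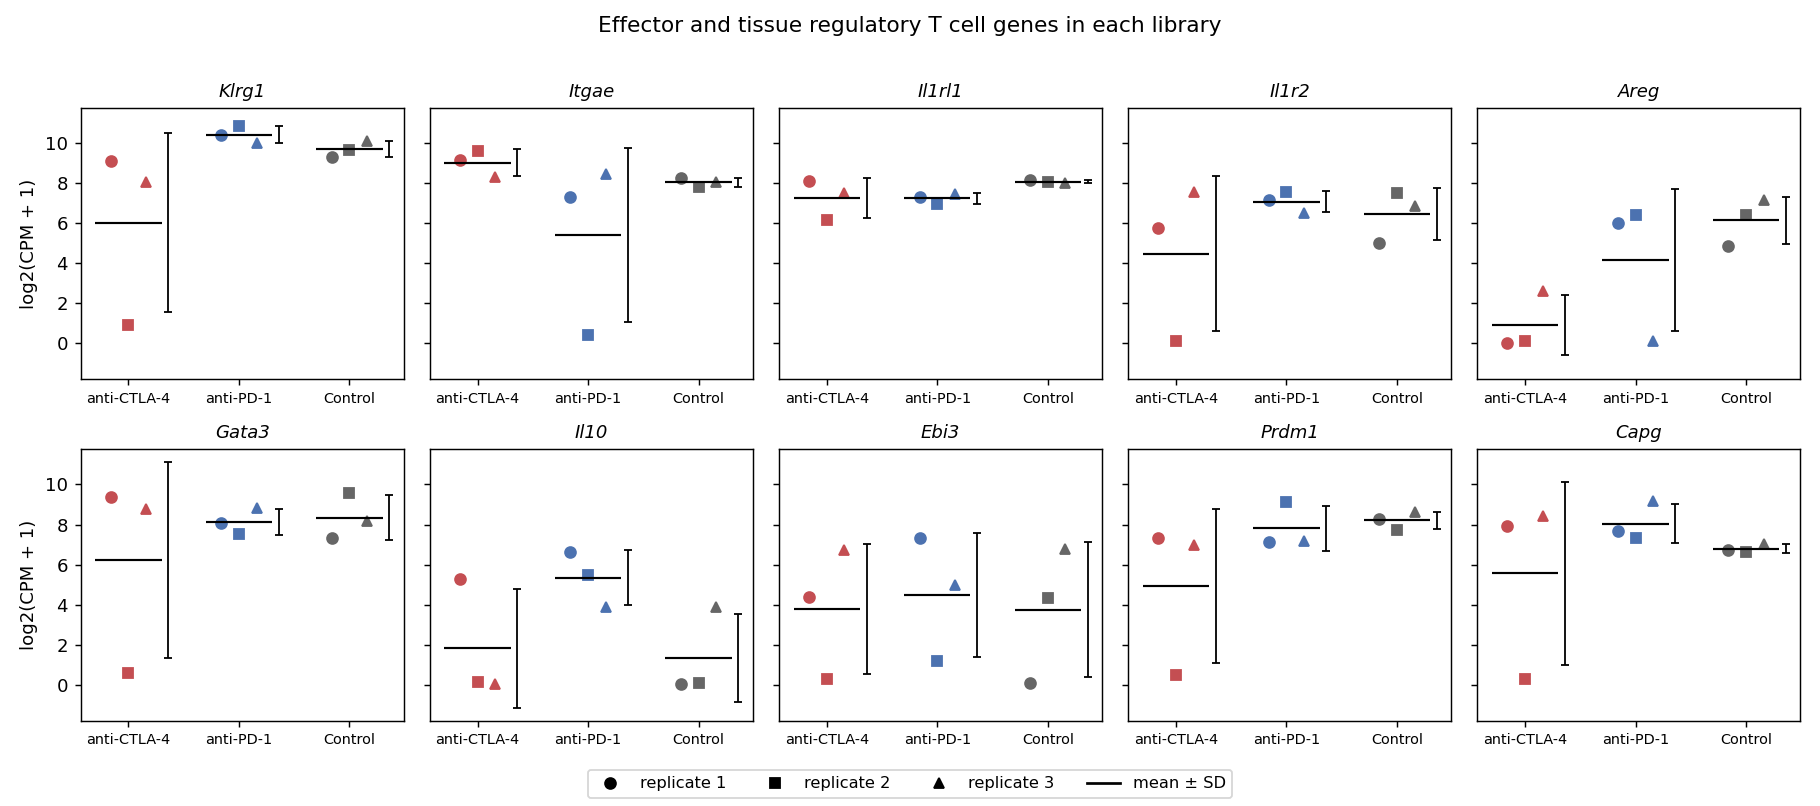
Each panel shows 1 gene as log2(CPM + 1) on the vertical axis, with the anti-CTLA-4, anti-PD-1 and Control libraries on the horizontal axis. Points are libraries with a symbol for each replicate number, horizontal lines are group means and bars are ± SD (n = 3). The squares of anti-CTLA-4 replicate 2 lie near 0 for 8 of the 10 genes, Il1rl1 is well above 0 in all 9 libraries, and Klrg1 under anti-PD-1 lies between 1011 and 1813 CPM.

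Klrg1, a lectin-like inhibitory receptor that binds cadherins, had the highest level per kilobase of the members in 8 of 9 libraries. It lies on GRCm38 chromosome 6, 122270596 to 122282882 (ENSMUSG00000030114). Under anti-CTLA-4 its levels were 553, 0.843 and 268 CPM. Anti-PD-1 libraries held 1356, 1813 and 1011 CPM, and controls held 629, 804 and 1097 CPM. All anti-CTLA-4 values were the lowest of the 9, whereas the anti-PD-1 and control ranges met between 1011 and 1097 CPM. Its fitted log2 fold change was -1.47 (SE 0.79) for anti-CTLA-4 against controls, with an adjusted p of 0.438 (edgeR). It was 1.03 (SE 0.78) for anti-PD-1 against controls, with an adjusted p of 1.0 (edgeR). The contrast between the antibodies was the largest in size, -2.50 (SE 0.82), with an unadjusted p of 0.00221 and an adjusted p of 0.127 (edgeR). Without anti-CTLA-4 replicate 2 that change was -1.89 (adjusted p = 0.0661, edgeR) and the change against controls was -0.88 (adjusted p = 0.657, edgeR). Without anti-CTLA-4 replicate 1 the contrast between the antibodies passed, at -3.45 (adjusted p = 0.0212, edgeR), and so did the test over the 3 groups (adjusted p = 0.0417, edgeR). It passed in no other alternative.

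Klrg1 was also set against Foxp3 in the same library, a ratio that no scaling factor can change. Foxp3 stood at 3028, 898 and 2863 CPM under anti-CTLA-4, at 3186, 2841 and 3901 CPM under anti-PD-1 and at 2362, 2727 and 3231 CPM in controls. Klrg1 equalled 18.2%, 0.0939% and 9.36% of Foxp3 CPM in the anti-CTLA-4 libraries. The shares were 42.6%, 63.8% and 25.9% under anti-PD-1, and 26.6%, 29.5% and 34.0% in controls. The anti-CTLA-4 libraries were again below all others, and the remaining groups overlapped.

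Itgae encodes the alpha chain of the integrin CD103, which pairs with the beta 7 chain and, like KLRG1, binds E-cadherin. Its gene spans chromosome 11, 73090583 to 73147446 (ENSMUSG00000005947). It stood at 566, 786 and 313 CPM under anti-CTLA-4, at 158, 0.332 and 349 CPM under anti-PD-1 and at 304, 224 and 266 CPM in controls. Every anti-CTLA-4 library was above every control, by a margin of 313 against 304 CPM at the closest. The highest value was in anti-CTLA-4 replicate 2, where most members were near 0, and the lowest in anti-PD-1 replicate 2. On the log2 scale the fitted fold change was 2.08 (SE 1.05) for anti-CTLA-4 against controls, with an unadjusted p of 0.0479 and an adjusted p of 0.435 (edgeR). It was 0.90 without anti-CTLA-4 replicate 2, with an adjusted p of 0.847 (edgeR). Against anti-PD-1 it was 2.67 (SE 1.07, adjusted p = 0.327, edgeR), and 1.49 without anti-CTLA-4 replicate 2. RLE factors raised the change against controls to 4.82 and library totals alone lowered it to 1.07. For anti-PD-1 against controls the change was -0.59 (SE 1.01), and 0.02 without anti-PD-1 replicate 2. As a share of Foxp3, Itgae reached 18.7%, 87.5% and 10.95% under anti-CTLA-4, 4.97%, 0.0117% and 8.94% under anti-PD-1 and 12.9%, 8.20% and 8.23% in controls. On this scale anti-CTLA-4 overlapped with controls and lay above anti-PD-1.

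Among 10 genes for ligands, integrin partners and phosphatases of KLRG1 and CD103, 8 were tested and none was called in any comparison. Cdh1 and Cdh2, which encode the cadherin ligands, were at 0 counts in all 9 libraries. The 3 partners with the highest mean were Itga4, Itgal and Itgb2. Itga4, an integrin chain used in homing, stood at 282 ± 296 CPM under anti-CTLA-4, 1222 ± 919 CPM under anti-PD-1 and 754 ± 302 CPM in controls (SD, n = 3 each). Itgb7, the chain with which CD103 pairs and a gene picked after its values were seen, stood at 214 ± 168, 335 ± 211 and 136 ± 169 CPM in the same groups, with overlap between all of them.

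Il1rl1 encodes ST2, the receptor for interleukin 33, and lies on chromosome 1, 40429570 to 40465415 (ENSMUSG00000026069). It was the only member at 5 CPM or more in all 9 libraries, which 13.7% of all tested genes reached. It stood at 277, 71.2 and 178 CPM under anti-CTLA-4, at 156, 121 and 175 CPM under anti-PD-1 and at 283, 263 and 253 CPM in controls. The controls lay within a coefficient of variation of 5.82%, a smaller spread than in nearly all genes, since 0.434% of tested genes had a lower one and the median was 89.1%. All anti-PD-1 libraries were below all controls, while the anti-CTLA-4 libraries reached from below the anti-PD-1 range into the control range. The fitted log2 fold change for anti-PD-1 against controls was -0.61 (SE 1.51), with an adjusted p of 1.0 (edgeR), so the difference was small beside the spread that the fit assigned to the gene. It was -0.15 (SE 1.51) for anti-CTLA-4 against controls and 0.47 (SE 1.51) for anti-CTLA-4 against anti-PD-1, and RLE factors turned the first of these to 1.64. Relative to Foxp3, Il1rl1 stood at 9.14%, 7.92% and 6.22% under anti-CTLA-4, at 4.88%, 4.26% and 4.48% under anti-PD-1 and at 12.0%, 9.66% and 7.82% in controls. On this scale anti-CTLA-4 replicate 2 lay inside its own group, and the anti-PD-1 libraries were below every library of both other groups.

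RefSeq lists 2 starts for Il1rl1 on GRCm38.p6. Reads from both, and from the membrane-bound and soluble forms of ST2, are summed in a single gene count. The windows from 250 bases before to 50 after each start are shown because Il1rl1 was the only member read well in every library, and capitals mark matches to AGATAA or its reverse complement, letters that GATA factors are known to bind.
Il1rl1 upstream start, chr1:40429320-40429619, plus strand: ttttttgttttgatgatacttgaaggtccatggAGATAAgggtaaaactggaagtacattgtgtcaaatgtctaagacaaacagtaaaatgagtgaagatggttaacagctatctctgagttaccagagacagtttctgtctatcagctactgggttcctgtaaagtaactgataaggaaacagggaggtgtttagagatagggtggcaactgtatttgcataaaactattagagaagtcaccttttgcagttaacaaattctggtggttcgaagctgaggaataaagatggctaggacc
Il1rl1 downstream start, chr1:40439379-40439678, plus strand: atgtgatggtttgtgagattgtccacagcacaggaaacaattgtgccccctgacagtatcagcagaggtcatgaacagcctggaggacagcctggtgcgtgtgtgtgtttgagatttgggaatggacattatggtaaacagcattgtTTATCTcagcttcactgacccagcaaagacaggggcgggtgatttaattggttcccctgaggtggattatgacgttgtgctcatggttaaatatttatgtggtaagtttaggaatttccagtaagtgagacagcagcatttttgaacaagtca
AGATAA on either strand was found in 11.2% of 32851 RefSeq promoter windows of this length, and in both Il1rl1 windows but in none of the other 6 windows of members (7 of the 10 members had an entry). Only AGATAA was searched for GATA factors, so near variants of these letters are not marked in any window. A match is a run of letters and not evidence of binding.

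Il1r2 encodes the decoy receptor for interleukin 1, which binds the cytokine without signalling. Like Il1rl1 it lies on chromosome 1, at 40074079 to 40125231 (ENSMUSG00000026073). It stood at 53.0, 0.0843 and 186 CPM under anti-CTLA-4, at 139, 186 and 91.1 CPM under anti-PD-1 and at 30.9, 182 and 114 CPM in controls. The ranges of all groups overlapped. Fitted log2 fold changes were -0.24 (SE 1.96) for anti-CTLA-4 against controls, 0.67 (SE 1.97) for anti-PD-1 against controls and -0.92 (SE 1.98) between the antibodies. Each had an adjusted p of at least 0.987 (edgeR). Without anti-CTLA-4 replicate 2 the first was 0.35 and the last -0.30.

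In the interleukin 1 receptor family 6 of 8 genes were tested and none was called in any comparison. Il18r1, the receptor chain for interleukin 18, had the highest mean level in CPM and stood at 155, 4.19 and 474 CPM under anti-CTLA-4, 245, 296 and 402 CPM under anti-PD-1 and 296, 347 and 260 CPM in controls. Il1rap, the co-receptor that ST2 needs to signal, was picked after its values were seen. It stood at 12.5, 205 and 49.4 CPM under anti-CTLA-4, at 42.8, 0.0302 and 14.8 CPM under anti-PD-1 and at 17.5, 0.0643 and 0 CPM in controls. It was thus below 1 CPM in 3 libraries in which Il1rl1 stood at 121 to 263 CPM.

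Of 10 genes for interleukin 33, interleukin 1 and their signalling, 8 were tested, and Il33 itself was at 0 counts in all 9 libraries. Tollip, an adaptor that restrains signalling from these receptors, was the only gene called, higher under anti-CTLA-4 than under anti-PD-1. Its levels were 23.2, 362 and 0.0306 CPM under anti-CTLA-4 and 0.0783, 0.0302 and 0.438 CPM under anti-PD-1 (adjusted p = 0.0317, edgeR). Controls stood at 2.92, 25.1 and 16.2 CPM. The groups overlapped and the call rested on anti-CTLA-4 replicate 2, without which the adjusted p was 0.651 (edgeR). It was also lost without any of the 3 controls (0.0728 to 0.0919) or any of the 3 anti-PD-1 libraries (0.151 to 0.29), and with RLE factors (0.0991), library totals (0.439), a filter at 5 CPM (0.055) or the replicate block (0.874).

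Areg encodes amphiregulin, a ligand of the epidermal growth factor receptor. It lies on chromosome 5, 91139599 to 91148432 (ENSMUSG00000029378). It was at 0, 0.0562 and 5.14 CPM under anti-CTLA-4, which were 0, 2 and 168 counts. Anti-PD-1 libraries held 62.2, 83.7 and 0.0584 CPM, and controls held 27.9, 83.7 and 139 CPM. All anti-CTLA-4 libraries were below all controls, and anti-PD-1 replicate 3, with 2 counts, lay within the anti-CTLA-4 range. The adjusted p was 0.538 for anti-CTLA-4 against controls, 0.527 for anti-CTLA-4 against anti-PD-1 and 1.0 for anti-PD-1 against controls (edgeR). No fold is given because of the libraries near 0. Of the 9 genes for ligands and receptors of this family Areg was the only one abundant enough to be tested, and Ereg, Egf and Egfr were at 0 counts in all 9 libraries.

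The Areg promoter window is shown because Areg was the member nearest to absence in a whole group. Capitals mark TGACGTCA, the cyclic AMP response element, which is its own reverse complement and was present in 1.79% of all windows.
Areg, chr5:91139349-91139648, plus strand: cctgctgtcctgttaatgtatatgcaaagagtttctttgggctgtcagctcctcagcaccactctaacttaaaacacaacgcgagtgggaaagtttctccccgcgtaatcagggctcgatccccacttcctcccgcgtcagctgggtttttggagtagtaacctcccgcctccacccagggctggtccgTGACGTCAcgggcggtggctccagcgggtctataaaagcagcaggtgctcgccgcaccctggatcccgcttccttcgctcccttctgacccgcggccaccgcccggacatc
Of the 7 members with an entry Areg alone had a match to these letters, and no value here bears on whether a factor bound there.

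Il10 and Ebi3 encode suppressor cytokine chains. Il10 lies on chromosome 1, 131019845 to 131024974 (ENSMUSG00000016529). It stood at 37.2, 0.0843 and 0.0306 CPM under anti-CTLA-4, at 98.5, 43.1 and 13.85 CPM under anti-PD-1 and at 0.0241, 0.0643 and 13.81 CPM in controls. All anti-PD-1 libraries were above all controls, but the lowest of them exceeded the highest control by less than 0.1 CPM. The adjusted p was 1.0 against controls for both antibodies and 0.958 between them (edgeR). Relative to Foxp3 the anti-PD-1 and control libraries overlapped, at 3.09%, 1.52% and 0.355% under anti-PD-1 and 0.00102%, 0.00236% and 0.427% in controls.

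Ebi3, a chain shared by interleukins 27 and 35, lies on chromosome 17, 55952640 to 55957022 (ENSMUSG00000003206). It was among the least even members, at 19.9, 0.225 and 104 CPM under anti-CTLA-4, 159, 1.27 and 30.5 CPM under anti-PD-1 and 0.0723, 18.8 and 108 CPM in controls. Every group held a library below 2 CPM and a library above 100 CPM. Fitted log2 fold changes were 0.17 (SE 2.73) for anti-CTLA-4 against controls, 0.67 (SE 2.74) for anti-PD-1 against controls and -0.50 (SE 2.74) between the antibodies, with adjusted p of at least 0.9995 in each (edgeR). Without anti-CTLA-4 replicate 2 the first was 0.75 and the last 0.14. An antisense gene, Gm16712, covers 23.4% of the exon bases of Ebi3 and was at 0 counts in all libraries. The partner chains Il12a and Il27, which join Ebi3 in interleukin 35 and interleukin 27, were at 0 counts in all 9 libraries.

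Of the 13 suppressor cytokine genes and their receptors 11 were tested and none was called. The highest was Il12rb2, a receptor chain used by interleukins 12 and 35, at 1024, 48.7 and 1100 CPM under anti-CTLA-4, 1563, 1230 and 709 CPM under anti-PD-1 and 397, 577 and 642 CPM in controls. All anti-PD-1 libraries were above all controls, with an adjusted p of 0.914 (edgeR). Lrrc32, which presents latent TGF-beta on regulatory T cells, stood at 226, 4.16 and 70.5 CPM under anti-CTLA-4, 846, 221 and 506 CPM under anti-PD-1 and 125, 369 and 224 CPM in controls. These ranges overlapped between every treated group and the controls.

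Prdm1 encodes Blimp-1 and lies on chromosome 10, 44437177 to 44528501 (ENSMUSG00000038151). It stood at 162, 0.394 and 123 CPM under anti-CTLA-4, at 139, 555 and 146 CPM under anti-PD-1 and at 304, 214 and 392 CPM in controls. The anti-CTLA-4 libraries were below all controls, with replicates 1 and 3 at 162 and 123 CPM and the lowest control at 214 CPM. Under anti-PD-1, 2 libraries were at about the anti-CTLA-4 level and 1 was above every control. The fitted log2 fold change was -1.51 (SE 1.44) for anti-CTLA-4 against controls, with an adjusted p of 0.889 (edgeR), and -0.92 without anti-CTLA-4 replicate 2. It was 0.29 (SE 1.41) for anti-PD-1 against controls, but -1.02 without anti-PD-1 replicate 2. Between the antibodies it was -1.80 (SE 1.45), with an adjusted p of 0.686 (edgeR), -1.20 without anti-CTLA-4 replicate 2 and -0.50 without anti-PD-1 replicate 2. As a share of Foxp3 it reached 5.35%, 0.0438% and 4.30% under anti-CTLA-4, 4.36%, 19.5% and 3.73% under anti-PD-1 and 12.8%, 7.83% and 12.1% in controls, again with no overlap between anti-CTLA-4 and controls.

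Gata3, a zinc finger transcription factor, lies on chromosome 2, 9857078 to 9890034 (ENSMUSG00000015619). Its exons overlap those of Gm13256 and 9230102O04Rik, both at 0 counts in all libraries. It stood at 656, 0.478 and 432 CPM under anti-CTLA-4, at 268, 182 and 453 CPM under anti-PD-1 and at 157, 752 and 289.5 CPM in controls. The control mice alone spanned 157 to 752 CPM, and both treated groups overlapped that range. Fitted log2 fold changes were 0.04 (SE 1.18) for anti-CTLA-4 against controls, -0.21 (SE 1.18) for anti-PD-1 against controls and 0.25 (SE 1.18) between the antibodies. Without anti-CTLA-4 replicate 2 the first was 0.63 and the last 0.85. Adjusted p was at least 0.9986 in each fit with all libraries (edgeR).

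Of 14 transcription factors of tissue regulatory T cells 13 were tested and none was called in any comparison. Foxp3 and Ikzf2, which encodes Helios, were the highest, Ikzf2 at 1602, 719 and 1234 CPM under anti-CTLA-4, 1759, 1811 and 1637 CPM under anti-PD-1 and 1779, 1948 and 1664 CPM in controls. Bhlhe40, a repressor active in stimulated T cells, stood at 550, 1294 and 817 CPM under anti-CTLA-4, 298, 36.4 and 640 CPM under anti-PD-1 and 465, 431.2 and 539.6 CPM in controls. Its anti-CTLA-4 libraries were above all controls, with an adjusted p of 0.432 (edgeR). Of 11 Th2 genes 5 were tested and none was called. Ccr4, a receptor for tissue-homing chemokines and the most abundant of them after Gata3, stood at 276, 91.9 and 152 CPM under anti-CTLA-4, 19.4, 27.7 and 3.62 CPM under anti-PD-1 and 230, 347 and 232 CPM in controls. The anti-PD-1 libraries were below every other library, with an adjusted p of 0.833 against controls (edgeR).

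Capg encodes a protein that caps actin filaments, and lies on chromosome 6, 72544391 to 72562983 (ENSMUSG00000056737). It stood at 244, 0.225 and 345 CPM under anti-CTLA-4, at 201, 158 and 577 CPM under anti-PD-1 and at 105, 97.1 and 131 CPM in controls. All anti-PD-1 libraries were above all controls, as were anti-CTLA-4 replicates 1 and 3. Without anti-CTLA-4 replicate 2 that group too had no overlap with controls, as was then so for 21.9% of tested genes. The controls were close together, with a coefficient of variation of 15.8%. Fitted log2 fold changes were 0.996 (SE 1.52) for anti-CTLA-4 against controls, 1.65 (SE 1.55) for anti-PD-1 against controls and -0.65 (SE 1.52) between the antibodies. Adjusted p was at least 0.988 in each (edgeR). The change for anti-CTLA-4 against controls was 1.60 without anti-CTLA-4 replicate 2 and 0.24 without anti-CTLA-4 replicate 3. For anti-PD-1 against controls it was 0.97 without anti-PD-1 replicate 3, and between the antibodies it was -0.047 without anti-CTLA-4 replicate 2. Of 10 actin capping and severing genes 6 were tested and none was called. Capzb, a subunit of the main actin capping protein, had even levels of 2134, 1875 and 1948 CPM under anti-CTLA-4, 1707, 1661 and 2028 CPM under anti-PD-1 and 1821, 2346 and 2064 CPM in controls, including anti-CTLA-4 replicate 2. Of 11 genes of resting regulatory T cells 8 were tested and none was called. Between the antibodies 1 of them was higher (background 2.81%) and 1 lower (background 6.95%) without overlap. Il7r had the highest mean and overlapped between the groups in every comparison. It stood at 1102, 347 and 608 CPM under anti-CTLA-4, 1300, 592 and 984 CPM under anti-PD-1 and 1136, 800 and 1472 CPM in controls. Satb1, a chromatin organizer, stood at 391, 627 and 440.4 CPM under anti-CTLA-4, 251, 209.6 and 291 CPM under anti-PD-1 and 214, 124 and 517 CPM in controls, above every anti-PD-1 library under anti-CTLA-4 (adjusted p = 0.469, edgeR).

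**Figure D2:**
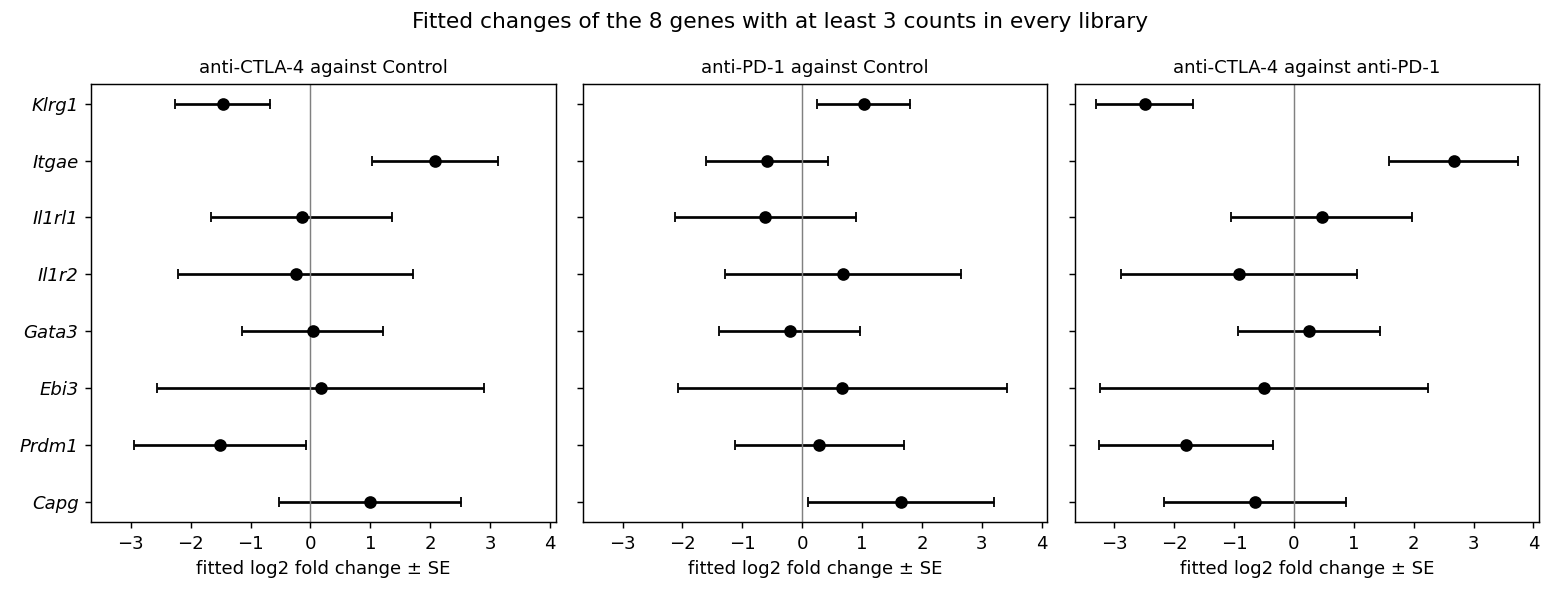
Fitted log2 fold changes (horizontal axis) with their standard errors as bars, for the 8 genes with at least 3 counts in every library, in the 3 comparisons named above the panels. Positive values are higher in the group named first; the changes of Klrg1 and Itgae lie farthest from 0 relative to their errors, at -2.50 and 2.67 for anti-CTLA-4 against anti-PD-1, and those of Gata3 lie between -0.21 and 0.25.

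Levels of different members were compared per kilobase of exon sequence, in CPM per kb. Klrg1 ranked first in 8 of 9 libraries, and Itgae ranked first in anti-CTLA-4 replicate 2. The median of Klrg1 was 189.5 CPM per kb under anti-CTLA-4, 959 under anti-PD-1 and 568 in controls. Under anti-PD-1 its lowest library, at 715 CPM per kb, was above the highest of the next gene, Capg, at 228. In controls its lowest, 445 CPM per kb, was above the highest of the next gene, Gata3, at 189. All other neighbours in the order of medians overlapped in their ranges in every group. In controls the order after Klrg1 was Gata3, Areg, Il1r2, Itgae, Prdm1, Capg, Il1rl1, Ebi3 and Il10, with medians from 72.8 down to 0.0491 CPM per kb. Under anti-CTLA-4 the lowest medians were those of Il10 and Areg, at 0.0644 and 0.0463 CPM per kb.

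Detection within the set differed between libraries of the same group. At 5 CPM or more there were 9, 2 and 9 of the 10 members in anti-CTLA-4 replicates 1, 2 and 3. The numbers were 10, 8 and 9 under anti-PD-1 and 8, 9 and 10 in controls. Among all tested genes, 31.2% reached 5 CPM in the second of these libraries, against 49.7% to 71.4% elsewhere. Only Itgae and Il1rl1 did so among the members in anti-CTLA-4 replicate 2. Of the 10 members 8 had fewer than 30 counts in some library and more than 1000 in another, a pattern shared by 77.9% of all tested genes.

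Genes with the most similar pattern were found by the root mean square difference of log2(CPM + 1) over the 9 libraries, after centring each gene, among 2860 genes with at least 3 counts in every library. Among the 3 genes nearest to Klrg1 were Sdf4 at 0.44 and Copa at 0.611 log2 units, where the median gene was at 2.84. Nearest to Il1rl1 were Tagln2, Il2ra and Ifngr1, at 0.378 to 0.38 log2 units, of which Il2ra encodes the interleukin 2 receptor alpha chain. The median gene was at 1.88 log2 units from Il1rl1. Il1rl1 itself varied little, with an SD of 0.658 log2 units over the 9 libraries, so other even genes also lie close to it. Nearest to Itgae was Rif1 (0.461), to Prdm1 S100a10 (0.422), to Capg L1cam (0.548) and to Gata3 Lasp1 (0.425), and Cd5 was also among the 3 nearest to Gata3 (0.488). Nearest to Il1r2 was Tmem30a (0.49) and to Ebi3 4930581F22Rik (0.692). These distances are a description over 9 libraries. Of the 8 members compared here, Klrg1, Il1r2, Gata3, Ebi3, Prdm1 and Capg stood below 1 CPM in anti-CTLA-4 replicate 2, and Itgae and Il1rl1 did not.

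**Figure D3:**
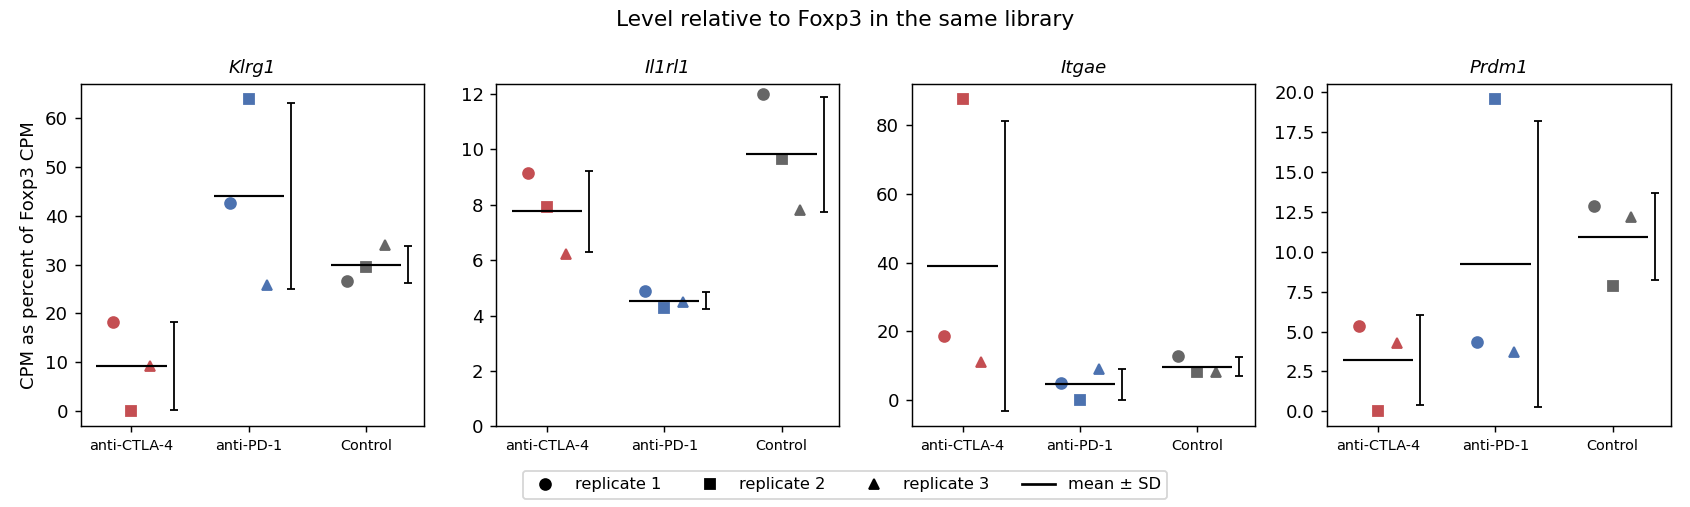
CPM of Klrg1, Il1rl1, Itgae and Prdm1 as a percent of Foxp3 CPM in the same library (vertical axis, own scale in each panel) for the anti-CTLA-4, anti-PD-1 and Control libraries. Points are libraries, lines are means and bars are ± SD (n = 3); Il1rl1 under anti-PD-1 lies between 4.26% and 4.88%, below both other groups, and Klrg1 under anti-CTLA-4 lies below both other groups, from 0.0939% to 18.2%.

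Several members are also used by other cells of a tumour, and markers of those cells were read in the same libraries. Type 2 innate lymphoid cells share Klrg1, Il1rl1, Gata3 and Areg. Of their 7 markers 3 were at 0 in all libraries, among them Ptgdr2 and Il17rb, and the sum was 0 to 47.4 CPM under anti-CTLA-4, 0.0292 to 6.47 CPM under anti-PD-1 and 0.0241 to 55.9 CPM in controls. Of 8 mast cell and basophil markers 7 were at 0 in all libraries, and the other stood at 36.9 CPM in Control replicate 1 and at most 0.0306 CPM elsewhere. For NK cells, which carry Klrg1, 5 of 7 markers were at 0, including Ncr1, and sums stayed at or below 84.4 CPM. For CD8 T cells, which carry Klrg1 and Itgae, Cd8a was at 0 in all libraries and Cd8b1 was at 125 CPM in anti-PD-1 replicate 3 and at most 0.118 CPM elsewhere. In that library Klrg1, at 1011 CPM, was the lowest and Itgae, at 349 CPM, the highest of the anti-PD-1 group, and the part of CD8 T cell RNA in these values was not tested. For dendritic cells, which can carry Itgae, 5 of 10 markers were at 0, with sums of 78.4 to 464 CPM under anti-CTLA-4, 25.3 to 147 CPM under anti-PD-1 and 8.88 to 130 CPM in controls. Neutrophil markers, of which 2 of 8 were at 0 in all libraries, summed to 7.84 to 267 CPM under anti-CTLA-4, 0.0783 to 6.63 CPM under anti-PD-1 and 0.0279 to 102 CPM in controls. Of 7 epithelial markers 5 were at 0, among them Krt8 and Cdh1, and the sum reached 57.7 and 155 CPM in replicates 1 and 3 of anti-PD-1 but stayed at or below 0.0656 CPM in all other libraries. Of 7 B and plasma cell markers 4 were at 0, and their sum was 0 in all anti-CTLA-4 libraries, at most 3.29 CPM under anti-PD-1 and at most 63.8 CPM in controls. The part of macrophage, fibroblast, neutrophil and dendritic cell RNA in the values of anti-CTLA-4 replicate 2 and of its group was not tested.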

How the data were processed

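Raw counts per gene for 9 libraries were used as deposited by the authors, with no normalization. Per the labels' protocols, T cells were sorted into lysis buffer, and low yields of RNA were amplified with a single-cell library kit for paired-end sequencing. Per the submitters' processing notes the build was GRCm38 and the tools were TopHat2, HTSeq and DESeq2. Their versions and the annotation are not stated there, and the deposited table's title names the first strand. Genes took 32.9% to 40.7% of all counts, and HTSeq summary entries for the rest entered neither library sizes nor tests. CPM are counts per 1000000 gene counts, with no further factor. The labels name no molecular identifiers, so floors of 3 counts cover counting error only.

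Tests used edgeR 4.0.16 in R 4.3.3 (robust quasi-likelihood, filterByExpr with a minimum count of 10). TMM factors were 0.403 for anti-CTLA-4 replicate 2, 0.833 for replicate 2 of anti-PD-1 and 1.06 to 1.26 otherwise. Standard errors are approximate, from each change and its F statistic. Folds are given for members with at least 3 counts in every library of both groups. DESeq2 1.42.0 was an alternative, as were RLE factors, library totals, other filters, a replicate block and left-out libraries. Coordinates and exon lengths are from GENCODE M21 and promoter windows from RefSeq on GRCm38.p6. All members are named. From each list the called genes, or else some of the 3 with the highest mean, are named. Others (Il1rap, Itgb7 and genes at 0 counts) were picked after their values were seen. Members and lists were chosen with earlier results of these data known. Libraries of single mice are taken as replicates. A gene among those nearest to Klrg1 is not reported here.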

Additional observations from a re-analysis of the deposited data

How the results depend on the processing

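The scaling factor of anti-CTLA-4 replicate 2 was 0.403 with TMM and 0.0615 with RLE. The median fitted change of all tested genes for anti-CTLA-4 against controls, 0.01 in the reported fit, was 0.56 with RLE factors, -0.34 with library totals only and 0.54 with DESeq2. For anti-PD-1 against controls the medians were 0.27, -0.12 and 0.26, and between the antibodies 0.45, -0.21 and 0.41. Calls of members stayed at 0 in every alternative, except for Klrg1 without anti-CTLA-4 replicate 1 (1 call between the antibodies and 1 in the test over the 3 groups, so 0 to 1 over left-out libraries). Counts of called genes, reported as 29, 6 and 65 for the 3 comparisons and 120 over the 3 groups, were 0, 0, 0 and 19 with RLE factors, and 0, 0, 6 and 12 with library totals only. At an unadjusted p under 0.05 there were 1118, 511 and 1261 genes with RLE factors and 697 and 414 with library totals in the comparisons at 0. No filter gave 64, 2 and 98, a filter at 5 CPM in 3 libraries 17, 3 and 38, and DESeq2 800, 750, 952 and 207. Without the 2 libraries with the fewest genes there were 1, 2, 16 and 6. With 1 library left out in turn the counts ran from 0 to 79, 0 to 5, 6 to 145 and 3 to 201. Groups of tested genes that did not overlap, reported as 938, 847 and 767, numbered 1538 to 2031, 1450 to 1800 and 1338 to 1632 with a library left out, and 1721, 1650 and 2702 without both. Members that did not overlap numbered 4 to 5, 3 to 5 and 1 to 4 with a library left out. The shares of all tested genes were then 19.6% to 25.8%, 18.5% to 22.9% and 17% to 20.8%. Leaving a library out can only keep or raise such counts, so these ranges do not show that the reported counts hold. Between the antibodies, 2 members did not overlap with TMM factors (9.99% of all tested genes) and 2 without both libraries (34.4%). As ratios to Foxp3, 3 did not overlap (9.96%). For anti-CTLA-4 against controls the members numbered 4 with TMM factors (11.4%), 5 without both libraries (21.9%) and 3 as ratios (11.4%). For anti-PD-1 against controls they numbered 3 (10.9%), 4 (21%) and 2 (11.7%) in the same order. Leaving libraries out and the ratio to Foxp3 were added for these overlap counts after seeing the data.

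No pairing of mice by replicate number was seen, since deviations of same-numbered libraries from their group means correlated at -0.039 to 0.0161. With levels this uneven between libraries, the check could miss a weak effect shared by same-numbered mice. With the replicate number as a block the counts of called genes were 10, 1, 12 and 17, and 0 members passed. Of 24 fold changes followed over 384 alternative values, 354 kept their direction without passing the threshold, 29 changed direction and 1 passed the threshold. The DESeq2 changes of Itgae, counted among the 354, had a direction but no adjusted p. None of those that changed direction passed in either fit, and the cause was not tested. For anti-CTLA-4 against controls Il1rl1 was 1.64 with RLE factors and 1.47 with DESeq2. Gata3 was -0.14 with library totals and -0.19 with the block, and Ebi3 was -0.041 and -1.58. With libraries left out Gata3 ran from -0.66 to 0.82, Ebi3 from -1.94 to 2.36 and Il1r2 from -1.91 to 0.35, and Il1r2 was 0.35 without both libraries. For anti-PD-1 against controls Prdm1 was -0.12 with library totals and -1.04 without both libraries, and Ebi3 was -0.55 with the block. With libraries left out Prdm1 ran from -1.02 to 0.64, Ebi3 from -1.36 to 2.85, Gata3 from -0.60 to 0.56 and Itgae from -1.70 to 0.018. Between the antibodies Il1r2 was 0.21 and Prdm1 0.12 without both libraries. With libraries left out Ebi3 ran from -2.58 to 1.51, Gata3 from -0.43 to 0.85 and Capg from -1.39 to 0.010.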
